A study of Mus musculus with 3 samples.

Results

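The 4 genes Areg, Ereg, Hbegf and Nrg1 encode ligands of the EGF receptor family: amphiregulin, epiregulin, heparin-binding EGF-like growth factor and neuregulin 1. They were followed through tumour-associated macrophages of 3 mice, in every cell with at least 500 detected genes and at most 15% mitochondrial UMIs (unique molecular identifiers, each standing for 1 captured transcript). These 4 genes, of 31053 features in the count matrices, were chosen by their measured levels over the macrophage clusters of these same 3 libraries, so those levels are given as a description with no test. The rule left 9749 of 10973 barcodes. The mice were of the strain FVB/N-Tg(MMTVPyVT)634Mul/J, in which the MMTV promoter drives the polyoma middle T oncogene in the mammary epithelium. A single mammary adenocarcinoma of 750 mm3 was taken from each mouse, digested with collagenase I and DNase, and sorted for cells positive for CD45, CD11b and F4/80 and negative for Ly6G. All 3 libraries form 1 untreated group with the mouse as replicate, and no other condition was sampled, so comparisons were made between macrophage states and between cells within each mouse.

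EGF family ligands are made as membrane-anchored precursors, and metalloproteases such as ADAM17 release the soluble growth factor. Amphiregulin binds EGFR, epiregulin and HB-EGF bind EGFR and ERBB4, and neuregulin 1 binds ERBB3 and ERBB4. Ligand binding pairs the receptors and starts signalling to ERK, which induces feedback inhibitors such as ERRFI1 and the DUSP phosphatases. In mammary tumours the receptors are best known on the epithelium, and macrophages are a recognised source of ligands for them.

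In build mm10, Areg (ENSMUSG00000029378) lies on chromosome 5 from 91139599 to 91148432 and Ereg (ENSMUSG00000029377) on the same chromosome from 91074622 to 91093646, both on the plus strand. Nrg1 (ENSMUSG00000062991) spans 31814551 to 32884029 of chromosome 8 on the minus strand; for Hbegf (ENSMUSG00000024486) no position is given. All 4 are protein-coding genes in GENCODE M21, with 1 row each in the matrices. The bases before the Areg start are shown because cAMP-response genes are among the groups tested against Areg below, and Areg was the only member matched in the RefSeq promoter table (GRCm38.p6). The 250 bases at chr5:91139349-91139598, plus strand, are printed 5′ to 3′, with capitals marking a cAMP response element, a further copy of its core, and a TATA box.
Areg upstream 250 bases: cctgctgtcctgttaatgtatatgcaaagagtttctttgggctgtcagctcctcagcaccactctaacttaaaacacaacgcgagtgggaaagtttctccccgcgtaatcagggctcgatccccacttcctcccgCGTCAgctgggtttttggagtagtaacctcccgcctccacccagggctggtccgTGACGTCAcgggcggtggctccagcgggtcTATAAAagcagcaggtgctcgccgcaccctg
Both strands were searched. The full element TGACGTCA began 61 bases upstream of the start and is held by 1.55% of 32851 promoters of the same length. Its core TGACG, which the full element contains on each strand, had a further match on the minus strand at 115 bases, and 17.8% of promoters hold that core. The TATAAA match lay 31 bases upstream, and 12.4% of promoters hold one. The AP-1 motif TGANTCA (6.75% of promoters) and the hypoxia response core ACGTG (16.6%) had no match in these letters.

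The libraries of mice 1, 2 and 3 held 12454677, 41097369 and 86178419 UMIs and kept 663, 2108 and 6978 cells, with medians of 15014, 13600 and 9318.5 UMIs. High mitochondrial shares took 36.03, 12.1 and 4.13% of the barcodes of the 3 libraries. Mice 2 and 3 shared 8 cell barcodes, 7 of them kept, and no others were shared. Clustering without any gene of the ligand pathway gave 16 clusters, of which 10 were named from marker genes and 6 kept a number. Of these, 15 were taken as macrophage clusters (9691 cells), and the last was tumour epithelium-like (58 cells). The sorted genes were detected in most macrophage cells: Ptprc (CD45) in 92.3%, Adgre1 (F4/80) in 87.0% and Itgam (CD11b) in 67.5% as means of 3 mice, with no Ly6g UMI in any cell.

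Areg was found in 9.65% of the cells of mouse 1 (exact 95% interval 7.51 to 12.2%), 26.0% of mouse 2 (24.1 to 27.9%) and 14.3% of mouse 3 (13.5 to 15.2%). These shares rest on 800, 6876 and 6167 UMIs, or 71.7, 171 and 72.1 counts per 1000000 UMIs (CPM), a mean of 105 ± 57.0 (SD, n = 3 mice). Mouse 2 was the highest on both measures, and mice 1 and 3 were close in CPM. Cells with Areg were also deeper, with median totals of 20237.5, 24321.5 and 12904.5 UMIs against 14683, 12247.5 and 8982.5 in cells without it. When the 617, 2000 and 6713 cells of at least 2000 UMIs were cut to that number at random (thinning) and shallower cells left out, 5.02, 12.5 and 6.63% still had Areg, in the same order. The intervals cover counting error only. In the 58 tumour epithelium-like cells, whose median was 4275 UMIs, 5.17% had an Areg UMI, 12.1% an Hbegf UMI and none an Nrg1 or Ereg UMI, which allows up to 5.17% of cells with a UMI for either.

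Areg was concentrated in few cells. The 436 cells with 10 or more Areg UMIs held 75.7% of all Areg UMIs, and in mouse 1 as few as 4 cells held the greater part of them. In mouse 1 a single cell carried 248 Areg UMIs, 31.0% of the total of that mouse, and without it the level of mouse 1 was 49.7 CPM. The most in a cell of mouse 2 was 126 and of mouse 3 it was 57.

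Hbegf was found in 9.95% of the cells of mouse 1 (7.78 to 12.5%), 26.2% of mouse 2 (24.3 to 28.1%) and 11.7% of mouse 3 (11.0 to 12.5%). Its levels were 12.4, 51.2 and 19.4 CPM, a mean of 27.7 ± 20.7 (SD, n = 3), from 138, 2061 and 1663 UMIs. As with Areg, mouse 2 was the highest, at 4.13 times the lowest mouse, and thinned shares of 2.11, 7.2 and 2.85% kept that order. Hbegf UMIs were spread more thinly over cells: 62 cells with 10 or more UMIs held 22.2% of them, and the most in a cell was 37.

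Nrg1 went the other way among the mice. It was found in 23.7% of the cells of mouse 1 (20.5 to 27.1%), 11.1% of mouse 2 (9.75 to 12.5%) and 10.7% of mouse 3 (10.02 to 11.5%). Its levels were 76.0, 16.3 and 19.0 CPM, a mean of 37.1 ± 33.7 (SD, n = 3), from 848, 656 and 1626 UMIs. Mouse 1 was 4.67 times the lowest mouse, and thinned shares were 10.05, 2.55 and 2.95%. Mouse 1 was also the library with the fewest cells and the largest loss to the mitochondrial filter, and the part of this in the Nrg1 level was not tested.

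Ereg was rare. No UMI was found in the 663 cells of mouse 1, which allows up to 0.452% of cells with a UMI by 3 cells of the total and up to 0.555% by the exact 95% interval. In the others, 25 cells of mouse 2 (1.19%, 0.769 to 1.75%) and 7 cells of mouse 3 (0.100%, 0.0403 to 0.207%) held 88 and 13 UMIs. Those cells were among the deepest, with median totals of 47764 and 38171 UMIs against 13508 and 9308 in cells without Ereg.

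**Figure D1:**
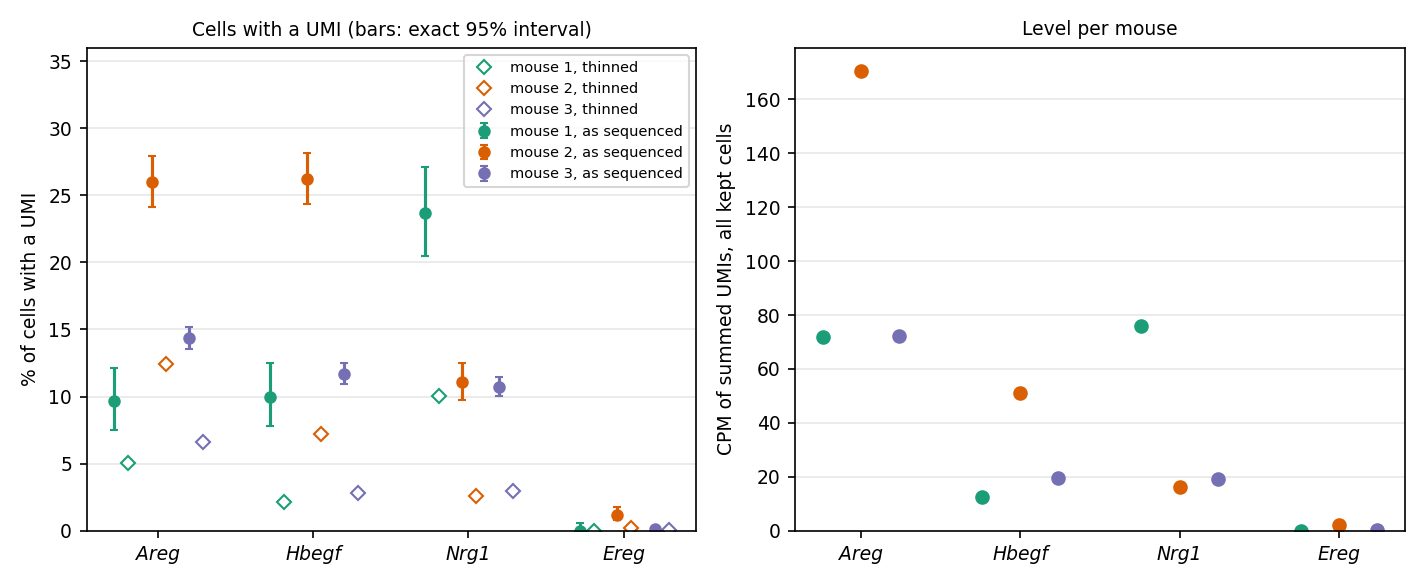
Share of cells with a UMI of each ligand (left, %, filled points with exact 95% intervals as sequenced, open diamonds after thinning the cells of at least 2000 UMIs to that number) and level (right, CPM of summed UMIs over all kept cells), with 1 point per mouse. Areg and Hbegf were highest in mouse 2, with 171 and 51.2 CPM, and Nrg1 in mouse 1, with 76.0 CPM.

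Areg was highest in numbered cluster 13, led by Retnla, Lyz1, Ifitm6 and Ear2, and in the inflammatory-like cluster 1, led by Cd207, Il12b and Ccl22. Cluster 13 (245 cells) held 167, 622 and 243 CPM in mice 1, 2 and 3, a mean of 344 ± 244 (SD, n = 3), with only 8 cells from mouse 1. The inflammatory-like cluster (1715 cells) held 196, 184 and 148 CPM, a mean of 176 ± 24.7. The spread between mice was thus far smaller in the inflammatory-like cluster, which held 44.3, 14.6 and 25.6% of each mouse's Areg UMIs in 16.1, 19.6 and 17.1% of its cells. Numbered cluster 15 followed with 155 ± 181 CPM from only 35 UMIs in 90 shallow cells, and the hypoxia-like cluster 9, led by genes such as Arg1 and Bnip3, with 150 ± 115. In the latter the mice held 282, 72.3 and 94.5 CPM, and mouse 1 fell to 29.98 without its single cell of 248 UMIs.

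Lower levels of Areg were found in numbered cluster 7 (116 ± 97.1 CPM), whose leading genes Retnla, Lyz1 and Ear2 are those of cluster 13, and in cluster 2 (101 ± 77.8). In cluster 7, 11 of 12 LYVE-1 resident markers were also higher than in the mean of the other clusters. In cluster 2, 8 of 10 inflammatory markers were. The LYVE-1 resident-like clusters 6 and 10 held 53.7 ± 49.6 and 34.5 ± 11.3 CPM, and the lipid-associated-like cluster 4 held 48.3 ± 15.4. The cycling-like clusters 5 and 12 were at 19.999 ± 15.9 and 21.99 ± 31.3, and the heat-shock and immediate-early-like cluster 3 at 16.7 ± 10.7. Areg was nearly absent from clusters 8 (3.48 ± 4.26 CPM) and 14 (0.652 ± 1.13), although their cells were not unusually shallow, with medians of 10053 and 7223 UMIs. In this order no cluster was separated from the next by more than the spread of the mice. Within mice the order was firmer: cluster 13 stood above 12 of the 14 other macrophage clusters in all 3 mice, and clusters 1 and 7 above 9 each.

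In this clustering Ereg lay in the same Retnla- and Lyz1-led clusters apart from a single UMI in the cycling-like cluster 5. Cluster 13 held 0, 9.07 and 1.87 CPM in mice 1, 2 and 3, and cluster 7 held 0, 5.16 and 0.650. Together they held 98.9% of the Ereg UMIs of mouse 2 and all 13 of mouse 3, with 31 of the 32 cells. Cluster 7 was the deepest of all, at a median of 35065 UMIs, and cluster 13 had 21443. Among cells of mouse 2 without Ereg that were matched to the Ereg cells on total UMIs, 44.0% lay in these clusters, against 96.0% of the 25 Ereg cells. The corresponding shares in mouse 3 were 42.9% and all 7 cells. Ereg cells also held the other ligands: 26 of the 32 (81.3%) had Areg, 22 (68.8%) had Hbegf and 14 (43.8%) had Nrg1. In mouse 2, 92.0% of the Ereg cells and 64.0% of the depth-matched cells had Areg. For Hbegf the shares were 68.0 and 72.0%, so it was not more frequent in the Ereg cells, and for Nrg1 they were 44.0 and 32.0%.

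Hbegf was highest in the LYVE-1 resident-like cluster 10, led by Lyve1, Cd209d, Cd163 and Ednrb. Its 406 cells held 27.0, 231 and 95.2 CPM in mice 1, 2 and 3, a mean of 118 ± 104 (SD, n = 3). Cluster 2, led by Nrg1, Ccl7, Ccl24 and Pf4, followed with 40.3, 107 and 44.4 CPM (64.0 ± 37.6). Clusters 7 and 13 held 48.8 ± 29.96 and 45.2 ± 9.57, and the LYVE-1 resident-like cluster 6, led by Ccl8 and Cd209f, held 23.2 ± 21.9. The inflammatory-like cluster, where Areg was high, held 12.99 ± 12.1 CPM of Hbegf, and the hypoxia-like cluster 7.39 ± 3.75. The lowest was cluster 8 at 1.29 ± 0.602, the only cluster that did not overlap its neighbour in the order. Clusters 10 and 2 each stood above 12 of the 14 other macrophage clusters in all 3 mice. The tumour epithelium-like cluster showed 75.9 ± 90.7 CPM, but in mouse 2 that value was a single cell of 37 UMIs, and it was 0 without that cell.

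Nrg1 shared its leading clusters with Hbegf. It was highest in the LYVE-1 resident-like cluster 10, at 348, 69.4 and 98.7 CPM in mice 1, 2 and 3 (172 ± 153; SD, n = 3), and next in cluster 2, at 222, 29.5 and 51.2 CPM (101 ± 105). Clusters 13, 7 and 11 held 53.8 ± 43.9, 51.9 ± 41.2 and 39.1 ± 35.4, cluster 11 being interferon-like with 9 cells in mouse 1. The LYVE-1 resident-like cluster 6 and the hypoxia-like cluster held 28.3 ± 21.1 and 27.3 ± 15.4. Below them the values dropped without overlap to the inflammatory-like cluster at 8.88 ± 4.804 CPM, and the remaining clusters held 6.61 or less, with 0 in cluster 15. Cluster 10 stood above all 14 other macrophage clusters in each mouse, and cluster 2 above 13.

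**Figure D2:**
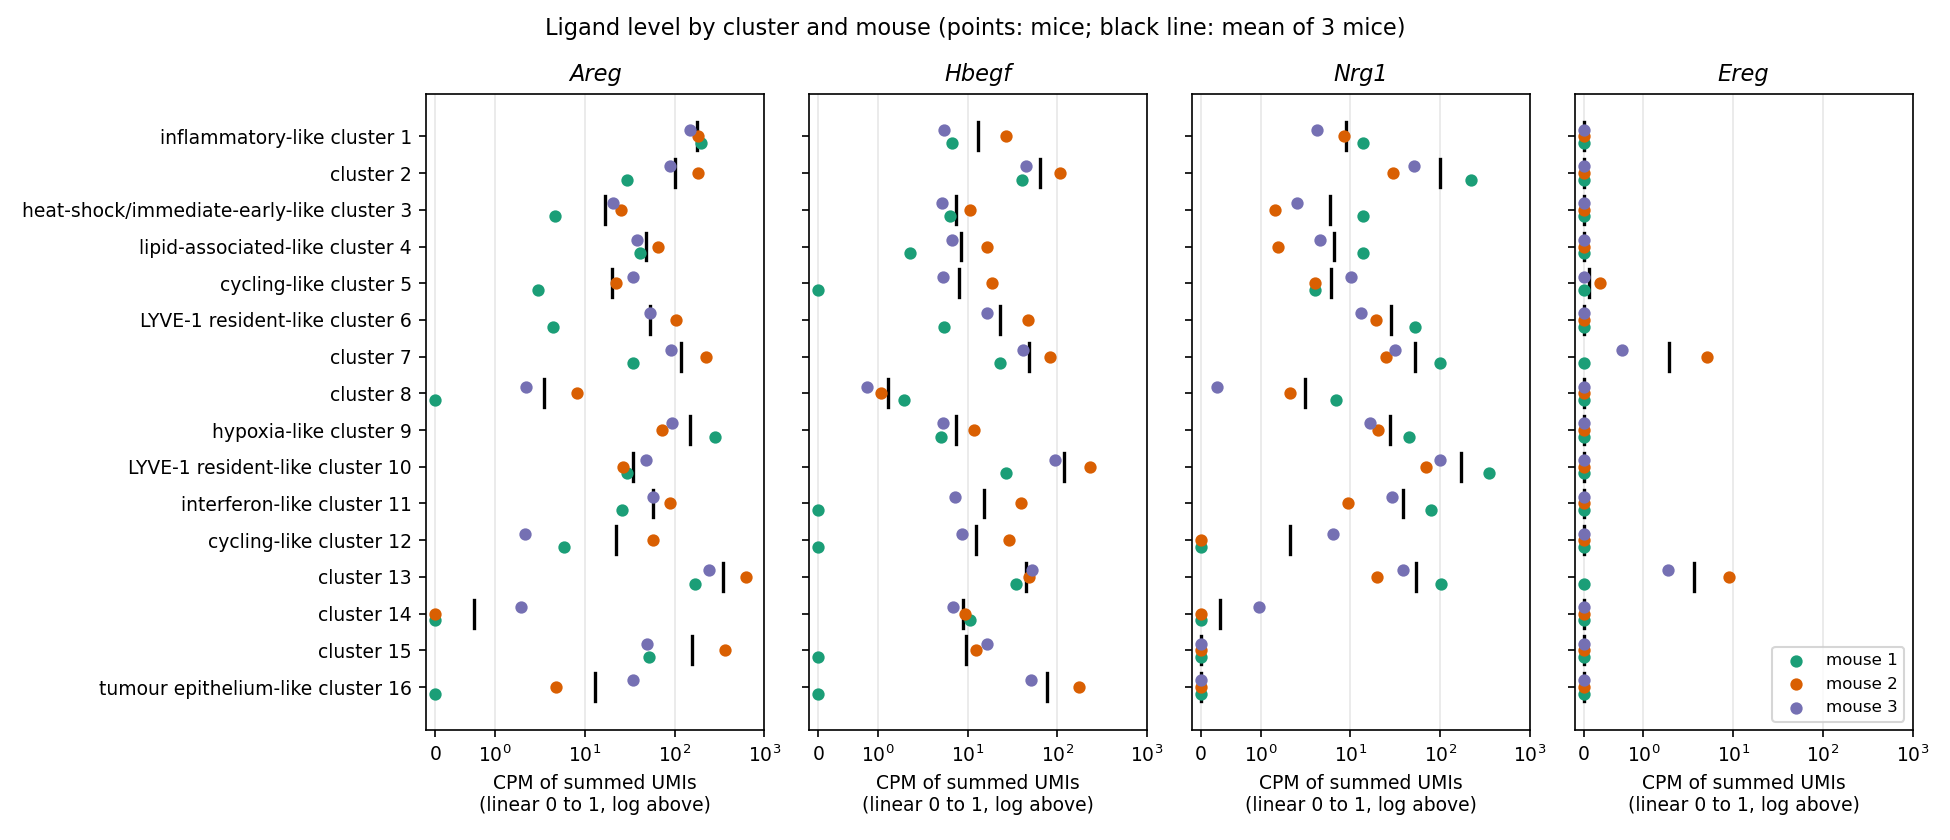
Level of each ligand (CPM of summed UMIs, symmetric log axis) in each cluster, with 1 point per mouse and a bar at the mean of 3 mice. Areg is high in clusters 13 (344 CPM) and 1 (176 CPM), Hbegf and Nrg1 in clusters 10 and 2, and Ereg in clusters 7 and 13 alone apart from a single UMI in cluster 5.

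Which cluster led depended on how the cells were clustered. With clusters of at least 20 cells in each mouse, Areg led in an inflammatory-like cluster in the clustering described and in those with 4000 variable genes, with at most 8% mitochondrial UMIs and with high doublet scores removed. It led in an interferon-like cluster at a resolution of 0.5, and in a hypoxia-like cluster at 1.5 and with at least 1000 genes. In each of these an inflammatory-like cluster came second and was the higher in mice 2 and 3. At 1.5 the hypoxia-like cluster held 495, 57.4 and 87.8 CPM in mice 1, 2 and 3, and the inflammatory-like cluster 183, 208 and 147. Mouse 1 has the single cell of 248 Areg UMIs, whose part in this was not tested. Nrg1 led in a LYVE-1 resident-like cluster in 3 of the 7 clusterings and in a numbered cluster in the other 4, and Hbegf in 4 and 3. Ereg led in numbered cluster 7 in the clustering described, where the limit of 20 cells leaves out cluster 13. It led in an interferon-like cluster at a resolution of 0.5, in a hypoxia-like one at 1.5 and in a cycling-like one with at least 1000 genes. Those clusters held 5.82, 8.51 and 1.54 CPM in mouse 2 and 0 in mice 1 and 3. Resolutions of 0.5 and 1.5 regroup the same cells. In the clustering described, the interferon-like and hypoxia-like clusters held 0 Ereg UMIs, and Ereg lay in clusters 7 and 13 apart from a single UMI. In the other 3 clusterings it led in a LYVE-1 resident-like cluster, with 0.814 to 4.64 CPM in mouse 2. With 4000 variable genes and with at most 8% mitochondrial UMIs that cluster was deep, at medians of 27439 and 27306 UMIs. With at least 1000 genes and with high doublet scores removed, the leading levels of 1.54 and 0.814 CPM lay below the 2.18 CPM of all kept cells of mouse 2. The limit of 20 cells left out clusters there too, so the leading cluster need not hold the most Ereg. With high doublet scores removed, a smaller LYVE-1 resident-like cluster of 174 cells was found, and 168 of those came from cluster 10. That removal touched 8.06% of the Areg cells, 3.13% of the Ereg cells, 5.99% of the Hbegf cells and 7.11% of the Nrg1 cells, against 4.41% of all cells.

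The division of cluster 10 that this exposed was looked at after seeing the data and is given with no test. It separated Nrg1 from Hbegf in mice 2 and 3 but not in mouse 1. The 168 cells (9, 27 and 132 in mice 1, 2 and 3) held more Lyve1, Fcna and Cd209f than the other cells of the cluster in each mouse, while 3 other resident-type genes differed in direction between mice. Lyve1, a hyaluronan receptor, was at 282, 476 and 521 CPM against 7.23, 142 and 251 in the remaining 38, 30 and 169 cells. Nrg1 was at 8.05, 14.96 and 23.5 CPM in the Lyve1-rich cells and at 409, 113 and 159 CPM in the remaining cells, so it was low in the Lyve1-rich cells of every mouse. Hbegf differed little in mice 2 and 3, at 239 and 91.2 CPM against 224 and 99.2, and was at 8.05 against 30.4 in mouse 1. In that mouse Nrg1 and Hbegf stood at the same 8.05 CPM in the Lyve1-rich cells, a value that rests on 9 cells. The remaining cells also held more of the chemokine gene Ccl7 (6780, 7690 and 6773 CPM against 2785, 3738 and 3953) and of the cytokine gene Il1b (10122, 6530 and 4337 against 845, 1646 and 949). Cd163, a scavenger receptor of haemoglobin, was at 153, 353 and 443 CPM in the Lyve1-rich cells and 174, 120.3 and 234 in the others, and the chemokine gene Ccl24 at 233, 865 and 405 against 366, 474 and 179, so both were lower in mouse 1 and higher in mice 2 and 3. Pf4, platelet factor 4, was at 1843, 1816 and 1786 CPM against 1721, 1952 and 2031, higher in mouse 1 and lower in mice 2 and 3. Divided instead by whether a cell had a Lyve1 or Cd163 UMI, cluster 10 held Nrg1 at 430, 65.4 and 74.7 CPM with such a UMI and 291, 82.9 and 182 without, so the direction then differed between mice.

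**Figure D3:**
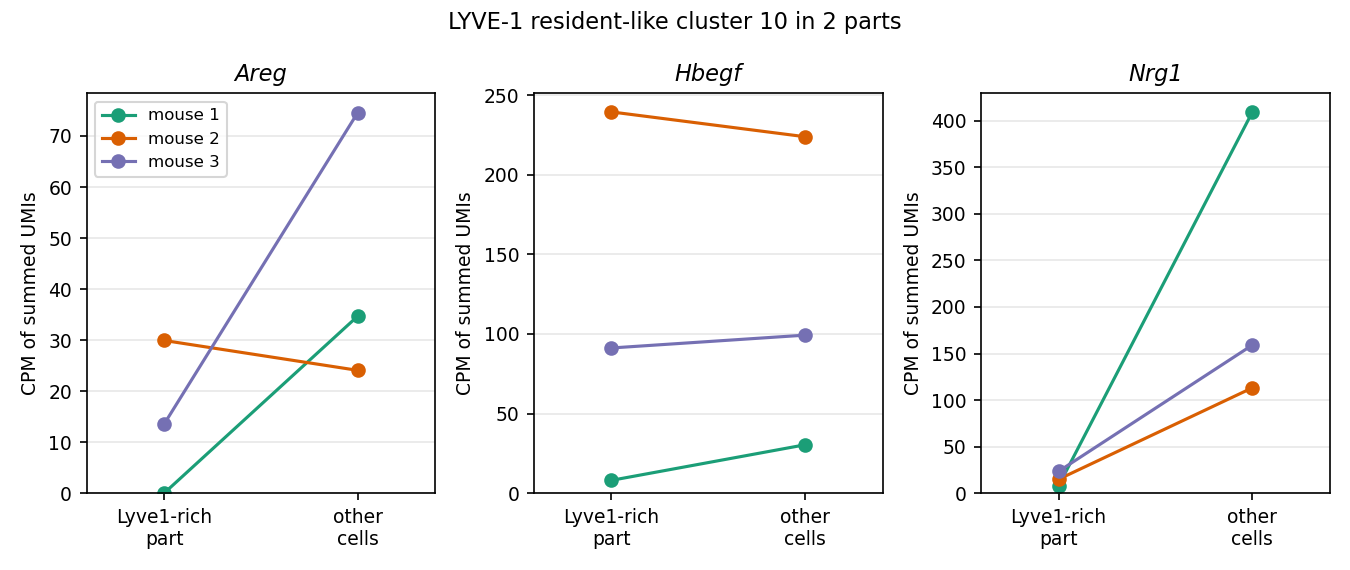
Levels of Areg, Hbegf and Nrg1 (CPM of summed UMIs) in the Lyve1-rich cells of the LYVE-1 resident-like cluster 10 and in its other cells, with a line per mouse. Nrg1 was lower in the Lyve1-rich cells of all 3 mice, at 8.05 to 23.5 against 113 to 409 CPM.

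The ligands met in single cells to different extents. Areg and Hbegf were found together in 506 cells, 31.4% of the Areg cells and 35.3% of the Hbegf cells. Hbegf and Nrg1 shared 391 cells (27.2% and 34.3%), and Areg and Nrg1 shared 315 (19.5% and 27.7%). Deep cells hold more of every pair, so these shares are not adjusted for depth. Clusters 7 and 13, the deepest of those with high ligand levels, held 8.88, 65.5 and 28.9% of the Areg UMIs of mice 1, 2 and 3, 23.2, 52.1 and 41.3% of the Hbegf UMIs and 15.1, 52.1 and 31.8% of the Nrg1 UMIs. They made up 5.73, 16.3 and 7.78% of the cells and 11.5, 35.8 and 18.7% of all UMIs. In mouse 1 the Areg share was thus below their share of all UMIs, and in mice 2 and 3 it was above.

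Over the 15 macrophage clusters, log2 levels of Hbegf followed those of Nrg1 (Pearson r = 0.76) more closely than those of Areg (0.48), and Areg and Nrg1 gave 0.49. These are descriptions over 15 points that share libraries. In mouse 1 the Areg level of the hypoxia-like cluster fell from 282 to 29.98 CPM without a single cell. No correlation without that cell was computed. Among 4988 genes, those most like Areg were Hilpda (0.91), a lipid-droplet protein of hypoxic cells, Clec4e (0.88), the receptor Mincle, the adenosine receptor gene Adora2b (0.88), Cytip (0.87) and Lactb (0.87). Most like Hbegf were the monocyte-attracting chemokine gene Ccl7 (0.95), Marcksl1 (0.92), Rgl1 (0.91), the chemokine gene Ccl2 (0.90) and Ier3 (0.87). Most like Nrg1 were Avpi1 (0.93), Ifitm2 (0.93), Cdc42ep4 (0.89), Tbl1x (0.88) and Efhd2 (0.88). Most like Ereg were the lysozyme gene Lyz1 (0.85), Myof, Mpp6, Ank and Rps6ka3, with Ereg itself at 0 in most clusters.

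The other 7 ligands of the family were scarcely detected. Of 9691 macrophage cells, Nrg2 had a UMI in 58, Egf in 41, Tgfa in 12, Btc in 6, Nrg4 in 4, Epgn in 2 and Nrg3 in none. Receptors were scarce as well: Egfr in 103 macrophage cells, Erbb3 in 95, Erbb2 in 10 and Erbb4 in none, the last allowing up to 0.0310% of cells with a UMI. In the 58 tumour epithelium-like cells, Erbb3 was found in 11 (19.0%), Egfr in 4 (6.90%) and Erbb2 in 2 (3.45%).

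The shedding machinery was widespread in macrophages. Adam17, the main sheddase of amphiregulin and HB-EGF, was found in 73.3% ± 7.39 of cells (mean ± SD, n = 3) at 138 ± 19.96 CPM. Adam10 was found in 58.7% ± 7.73, Adam15 in 62.2% ± 5.98, Adam9 in 37.1% ± 7.78 and Rhbdf2, which brings ADAM17 to the cell surface, in 29.7% ± 5.53. Timp3, an inhibitor of ADAM17, was found in 23 cells. Among adaptors and feedback genes of receptor signalling, Errfi1, an inhibitor of EGFR itself, was at 217, 292 and 181 CPM and Dusp5, a nuclear ERK phosphatase, at 188, 272 and 206. Grb2, the adaptor that couples the receptors to RAS, was at 281 ± 19.9 CPM, and the ERK-pathway inhibitor genes Spred1 and Dusp6 were at 99.2 ± 30.1 and 38.2 ± 6.62.

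To ask which other genes differed with the detection of a ligand, macrophages with at least 1 UMI of a ligand were compared with cells of the same mouse that had none and the same total UMIs within 10%. UMIs were summed per mouse and side and tested with edgeR's quasi-likelihood test with the mouse as a block, at a Benjamini-Hochberg adjusted p under 0.05. A cell without a UMI may still express the ligand, and a UMI may come from free RNA in the droplet, whose part was not tested. The ligands and gene lists were chosen with earlier results of these data known, and some lists share genes with the cluster markers. Counts by list, and adjusted p-values of genes on the lists, therefore describe the cells below and cannot serve as a test of a link to a state. In cluster 8, whose levels were among the lowest, 1.604% ± 1.44 of cells had an Areg UMI, 1.78% ± 1.253 an Hbegf UMI and 2.88% ± 4.38 an Nrg1 UMI (mean ± SD, n = 3), at a median of 10053 UMIs. For Areg, 62, 452 and 987 pairs of cells entered from mice 1, 2 and 3. Another 2, 95 and 11 Areg cells had no partner and were left out.

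Areg cells had more of most NF-kB and inflammatory cytokine genes, of most MHC class II genes and of some cAMP-response genes, and less of some cell-cycle and immediate-early genes. Over all 11033 genes tested, 415 were higher (3.76%) and 94 lower (0.852%), 4.61% in all. Of 20 NF-kB and inflammatory genes, 15 were higher and none lower, with a median log2 difference of 0.60 against -0.0026 over all genes. Il1b, Tnf and Cxcl2 of this list are also markers by which the inflammatory-like cluster, where Areg was high, was named. Of 14 cAMP-response genes, 6 were higher (median 0.40), and of 10 MHC class II genes, 7 were higher (median 0.40), with none lower in either. Against all cells without a UMI, not matched on depth, 12 NF-kB and 7 cAMP-response genes were higher but only 1 MHC class II gene was (median 0.12). With cells matched within the same cluster as well, 8 NF-kB, 4 cAMP-response and 5 MHC class II genes were higher. Leaving out a mouse gave 13 to 16 higher NF-kB genes, with 1 lower without mouse 2, and 4 to 7 higher genes in each of the other lists.

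The cytokine gene Il6 was at 12.0, 25.8 and 7.16 CPM in the Areg cells of mice 1, 2 and 3 and at 3.78, 4.995 and 3.06 in the matched cells (log2 difference 1.92 ± 0.23 SE, edgeR adjusted p = 5.2e-04). The neutrophil-attracting chemokine gene Cxcl3 was at 153, 71.5 and 69.3 CPM against 34.0, 31.9 and 28.6 (1.47 ± 0.15, edgeR adjusted p = 0.00201). For both genes all Areg sums lay above all matched sums. The related Cxcl1 was at 1056, 1144 and 704 CPM against 515, 737 and 413 (0.91 ± 0.08), higher in each mouse although the ranges overlapped. Within the same cluster Il6 and Cxcl1 passed the test (0.92 and 0.45) and Cxcl3 did not (0.75).

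The cAMP-response list also holds genes of surface receptors, among them those of adenosine. Its higher genes were the adenosine receptor genes Adora2a (1.54 ± 0.21) and Adora2b, the nuclear receptor gene Nr4a3, the phosphodiesterase gene Pde4b, Crem and Fosl2. Nr4a3 was at 243, 298 and 249 CPM in Areg cells against 139, 211 and 194 (0.62 ± 0.09, edgeR adjusted p = 9.6e-04), without overlap. Adora2a rested on low levels of 11.3, 15.4 and 4.38 CPM against 6.81, 4.803 and 1.75, and its call was lost within the same cluster (0.50) and without mouse 2 (1.22). Nr4a3 and Pde4b passed within the same cluster (0.33 and 0.25).

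Among genes of receptor signalling, Errfi1 was at 387, 360 and 238 CPM in Areg cells against 193, 227 and 167 (0.80 ± 0.10, edgeR adjusted p = 3.5e-04), and Dusp5 at 256, 330 and 257 against 169, 217 and 200.1 (0.61 ± 0.08). Neither overlapped, and both passed within the same cluster (0.34 and 0.25). Spred2 was also higher, and Dusp6, a cytoplasmic ERK phosphatase, was lower at 22.6, 26.3 and 25.7 CPM against 50.7, 41.3 and 33.8 (-0.49 ± 0.11), a call lost without mouse 1 (-0.42), without mouse 2 (-0.49) and within the same cluster (-0.27). No shedding gene passed the test among 8, and no receptor was abundant enough to be tested. What lay behind the differences in feedback genes was not tested.

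The MHC class II genes that were higher included H2-Eb1 (118, 201 and 140.0 CPM against 89.3, 126 and 99.3; 0.65 ± 0.08), H2-DMb2 (0.60 ± 0.12) and H2-DMb1 (0.43 ± 0.09). Without mouse 2 neither H2-DMb gene passed (0.36 and 0.26), and without mouse 3 H2-DMb1 did not (0.47). The hypoxia genes Hilpda (0.67 ± 0.08), Ndrg1 and Vegfa (0.49 ± 0.08) were higher among 12 tested. Of 19 immediate-early genes, Jun (-0.59 ± 0.09), Egr1 (-0.43 ± 0.10), Atf3, Fos and Klf2 were lower. The MAP kinase phosphatase gene Dusp1 was higher (0.48 ± 0.09), while the median of the list was 0.07. Within the same cluster 1 gene of this list passed as lower, and the DESeq2 Wald test called 2 lower. Of 12 cell-cycle genes, Cdk1 (-0.67 ± 0.13), Mki67 (-0.57 ± 0.13) and Rrm2 (-0.53 ± 0.14) were lower, and none passed within the same cluster. Cdk1 and Mki67 failed without mouse 1 (-0.65 and -0.49), Cdk1 without mouse 2 (-0.46), and Rrm2 without any of the 3 mice (-0.47, -0.59 and -0.70). Of 16 resident-type scavenging genes none passed, and within the same cluster 6 were lower. Il10 was the only one of 15 other growth and repair factor genes to be higher (0.57 ± 0.10), and none of 12 lipid-associated genes passed.

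Among genes of at least 20 CPM the largest increase in Areg cells was in Retnla, which encodes a secreted resistin-like protein, at 296, 5691 and 1743 CPM against 55.2, 1694 and 659 (1.84 ± 0.22, edgeR adjusted p = 0.0440). Its difference was -0.54 within the same cluster, and Retnla is a leading gene of clusters 7 and 13. These clusters held 9.68, 36.5 and 22.4% of the paired Areg cells and 4.84, 12.4 and 12.8% of the matched cells. Of all Areg cells, paired or not, they held 12.5, 44.8 and 22.8%. After Retnla came smaller increases. Flrt3 (1.22 ± 0.12), the mitochondrial calcium regulator gene Mcub (1.07 ± 0.19), the TNF-receptor adaptor gene Traf1 (1.04 ± 0.11), Cdc42ep2 (1.02 ± 0.12), Rab11fip1 (1.00 ± 0.11) and the NF-kB inhibitor gene Tnip3 (0.99 ± 0.09) followed. Of these, Flrt3 and Tnip3 passed within the same cluster (0.63 and 0.26). The largest decreases were in Cdca8 (-0.86 ± 0.12), H2afx (-0.78 ± 0.12), Arl11 (-0.77 ± 0.10) and Ube2c (-0.71 ± 0.14), and neither Mcub (1.12) nor Ube2c (-0.66) passed without mouse 1.

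Some markers of other cells moved with the split. Of 8 tested monocyte markers, Vcan (1.24 ± 0.20) and Hp were higher in Areg cells, and the 10 markers summed to 1312 to 2052 CPM against 902 to 1103. The 6 erythroid markers summed to 243 CPM in the Areg cells of mouse 2 and to 2.11 to 4.54 in all other sums, with none of the 2 tested passing. Summed T cell markers were 111 to 246 CPM against 78.7 to 190, with 1 of 2 tested genes higher, Il7r (0.46 ± 0.09). Summed epithelial markers were 40.6 to 94.0 against 31.8 to 81.9, with none of 7 passing. The part of these cells or of their RNA in the results was not tested.

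In Hbegf cells most resident-type scavenging genes were higher. With 64, 450 and 789 pairs of cells, 1222 of 11077 genes were higher (11.0%) and 677 lower (6.11%), 17.1% in all. Of 16 resident-type scavenging genes, 13 were higher and none lower, with a median log2 difference of 1.24 against -0.0030 over all genes. They included Cd163, Ccl24, Lyve1, Fcna, Cbr2, F13a1, Pf4, Timd4 and Mrc1. Leaving out a mouse gave 12 to 15 of them, and matching within the same cluster left 6. Lyve1, Cd163 and Fcna of this list are also markers by which the LYVE-1 resident-like clusters were named, and Hbegf was highest in cluster 10. The counts describe that pattern and do not test it.

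Of the genes named in the comparison of Hbegf cells with matched cells, Ccl7 had the largest difference, at 2593, 2224 and 1893 CPM in Hbegf cells of mice 1, 2 and 3 against 674, 533 and 619 in matched cells (1.92 ± 0.09, edgeR adjusted p = 4.3e-07). Ccl2, which attracts monocytes through the same receptor, was at 1656, 1077 and 1847 CPM against 638, 347 and 654 (1.56 ± 0.06, edgeR adjusted p = 2.0e-10). Neither overlapped. Within the same cluster Ccl2 passed (0.76) and Ccl7 did not (0.83), and Ccl7 also failed without mouse 1 (1.88). The scavenger receptor gene Cd163 was at 22.8, 24.2 and 53.4 CPM against 6.27, 7.04 and 17.3 (1.72 ± 0.10), and the endothelin receptor gene Ednrb at 76.0, 61.2 and 92.8 against 25.1, 18.4 and 31.5 (1.67 ± 0.08). Lyve1 (1.52 ± 0.09), Ccl24 (1.53 ± 0.12) and the lectin genes Clec10a (1.44 ± 0.06) and Mgl2 (1.42 ± 0.11) were higher too. Among these, Clec10a passed within the same cluster (0.46).

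Other growth and repair factors were higher in Hbegf cells for 7 of 15 genes and lower for none: Igf1, Lif, Osm, Pdgfc, Csf1, Pdgfa and Tgfb1. Igf1, insulin-like growth factor 1, was at 35.9, 36.9 and 30.6 CPM against 16.0, 13.01 and 15.5 (1.249 ± 0.12, edgeR adjusted p = 2.0e-06), without overlap, and passed within the same cluster (0.53). Osm (0.59 ± 0.09) and Pdgfc (0.59 ± 0.11) lost their calls there (0.26 and 0.20) and without mouse 2 (0.45 and 0.66). Within the same cluster 2 of the 15 passed, and without mouse 2 it was 1.

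Some inflammatory and immediate-early genes were also higher in Hbegf cells. Of 20 NF-kB and inflammatory genes, 11 were higher (median 0.34), led by Il6 (1.04 ± 0.25), Cxcl2 (0.90 ± 0.05) and Cxcl1 (0.80 ± 0.13), and 11 of 19 immediate-early genes (median 0.37), including Ier3 (0.91 ± 0.09), Jund (0.71 ± 0.12) and Klf4 (0.66 ± 0.09). Ier3 was at 1274, 988 and 866 CPM against 574, 547 and 558, without overlap. Without mouse 1 neither Il6 (0.98) nor Cxcl1 (0.68) passed, and Il6 also failed without mouse 3 (0.66). Within the same cluster 3 genes of each list passed, and without mouse 2 the counts were 6 and 5. Of 14 cAMP-response genes 8 were higher (median 0.29), but none passed within the same cluster or without mouse 2. The MHC class II genes H2-Eb1 (0.34 ± 0.06) and H2-Aa (0.21 ± 0.06) were higher, and neither passed without mouse 2 (0.32 and 0.18) or within the same cluster, where both differences were slightly below 0. Against all cells without a UMI, not matched on depth, 1 of the 10 MHC class II genes was higher and 4 were lower.

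Receptors of the family were scarce in macrophages, and what raised their adaptor and feedback genes in Hbegf cells was not tested. Among these genes, Errfi1 was at 308, 388 and 262 CPM in Hbegf cells against 168, 234 and 165 (0.79 ± 0.06, edgeR adjusted p = 3.5e-07). It did not overlap, and it passed within the same cluster (0.38). Gab1 (0.54 ± 0.14), Dusp5 (0.41 ± 0.06), Spred1 and Cbl, which encodes the ubiquitin ligase that turns over EGFR, were the other 4 of 12 that were higher. Of 8 shedding genes, Rhbdf2 (0.43 ± 0.09), Adam15 (0.32 ± 0.07) and Adam9 (0.26 ± 0.08) were higher. Rhbdf2 was at 27.6, 38.7 and 34.6 CPM against 17.4, 27.1 and 29.1. Adam15 and Adam9 did not pass without mouse 3 (0.31 and 0.33). None of the 3 passed without mouse 2 (0.34, 0.23 and 0.28) or within the same cluster (0.17, 0.07 and 0.12).

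Of 12 cell-cycle genes 5 were lower, among them Birc5 (-1.14 ± 0.16), Cdk1 (-0.94 ± 0.13) and Mki67 (-0.89 ± 0.08), with 2 called within the same cluster and 3 without mouse 2 or without mouse 3. Birc5 itself failed without either (-1.26 and -1.34). Among genes of at least 20 CPM the other large decreases were in the histone gene Hist1h1b (-1.06 ± 0.17), Cenpe (-0.98 ± 0.11) and Cdca8 (-0.96 ± 0.12). Smaller differences were found in the heat-shock genes Hspa1b (0.38 ± 0.08), Bag3 (0.35 ± 0.09) and Hspe1 (-0.25 ± 0.06), the hypoxia genes Pfkfb3 (0.62 ± 0.07) and Hilpda (0.29 ± 0.06), and the lipid-associated genes Lpl (0.48 ± 0.12), Lgals3 (-0.38 ± 0.06) and Cd9 (-0.23 ± 0.07). Of these 8, only Pfkfb3 and Lgals3 passed without mouse 2 (0.65 and -0.40).

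The total of 1899 genes called for Hbegf rested on single mice more than that for Areg: 214 were called without mouse 2 (209 of them shared) and 593 without mouse 3 (562 shared). For Areg, 509 genes were called, and 202 without mouse 2, of which 147 were shared. With cells matched within the same cluster, 127 genes were called for Areg (90 shared) and 119 for Hbegf (104 shared). Clusters 7 and 13 held 10.9, 34.0 and 30.4% of the paired Hbegf cells against 9.38, 14.7 and 14.1% of the matched cells. Of all Hbegf cells, paired or not, they held 13.6, 42.8 and 31.6%. Without these clusters 1033 genes were called. In the Hbegf cells of mouse 2 the summed erythroid markers were 249 CPM, and in all other sums they were 2.09 to 6.22. Of 8 tested monocyte markers 2 were higher and 1 lower, and of 7 epithelial markers 1 was higher, with sums of 51.2 to 109 CPM against 32.8 to 89.9. The part of these in the result was not tested.

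The ligands also appeared in each other's comparisons. They were chosen with their levels over the clusters of these libraries known. The adjusted p-value of a ligand in another ligand's comparison, here and below, therefore cannot serve as a test of a link between them. Hbegf was higher in Areg cells, at 12.0, 58.0 and 25.5 CPM against 9.08, 40.2 and 19.2 (0.56 ± 0.10, edgeR adjusted p = 0.00379), and Areg in Hbegf cells, at 44.2, 227 and 85.0 against 25.1, 168 and 63.5 (0.50 ± 0.07, edgeR adjusted p = 9.3e-05). Within the same cluster these differences were 0.03 and -0.30 and did not pass, and without mouse 2 neither passed (0.47 and 0.52). Hbegf in Areg cells also failed without mouse 3 (0.64). Nrg1 was higher in Hbegf cells, at 114, 21.7 and 33.8 CPM against 52.3, 14.96 and 18.4 (0.87 ± 0.10, edgeR adjusted p = 1.8e-05), with a difference of 0.01 within the same cluster. In Areg cells Nrg1 was at 62.4, 16.6 and 24.2 CPM against 74.1, 18.3 and 17.0 (0.24 ± 0.13, edgeR adjusted p = 0.408), so it was higher in 1 of 3 mice and did not pass.

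**Figure D4:**
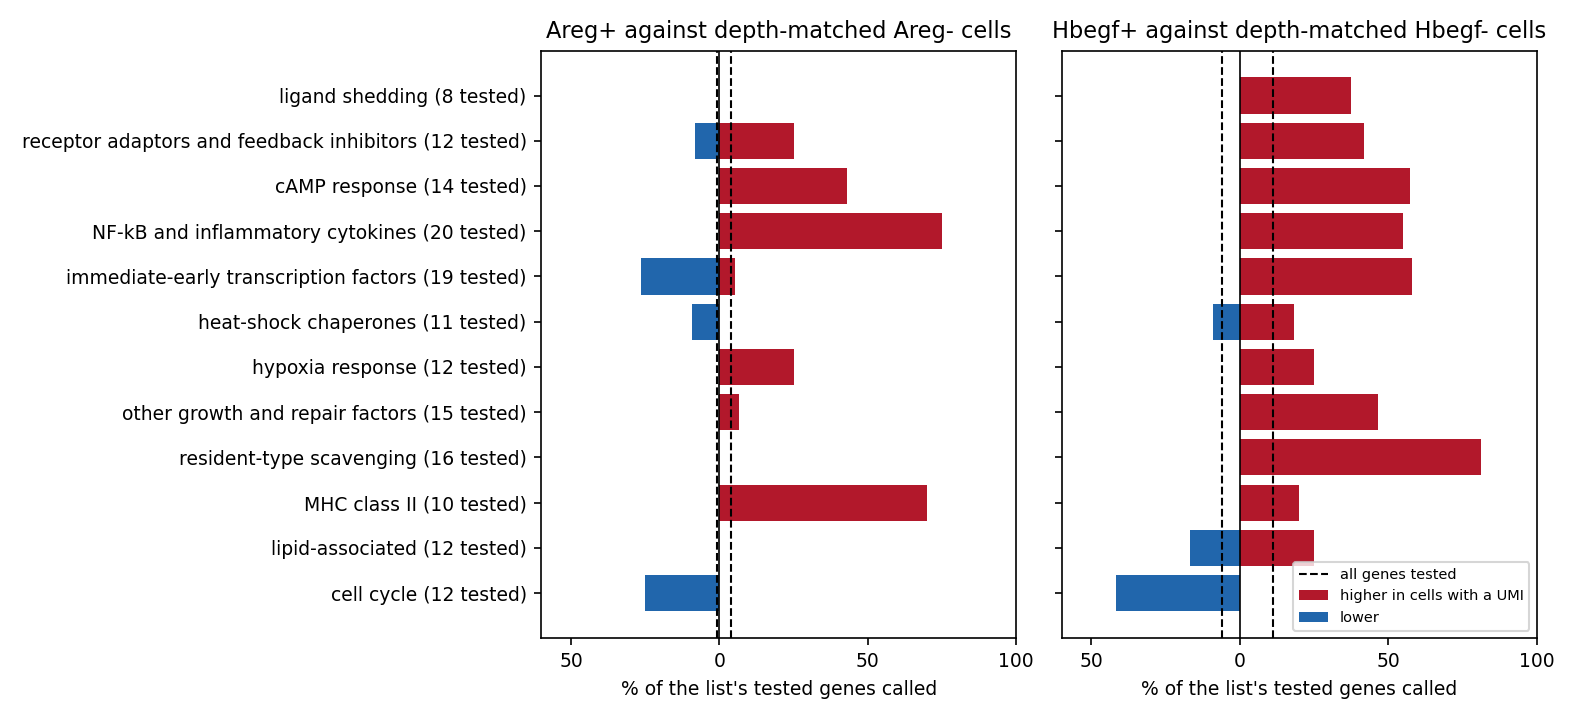
Share of the tested genes of each list that were higher or lower in cells with Areg (left) and with Hbegf (right) than in depth-matched cells of the same mouse, by edgeR at an adjusted p under 0.05, beside the share over all genes tested. In Areg cells 15 of 20 NF-kB and inflammatory genes were higher, and in Hbegf cells 13 of 16 resident-type scavenging genes.

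Areg and Hbegf cells were also set against each other directly, in a comparison added after seeing the data. The limit on gene lists given above holds here too. Cells with Areg and no Hbegf were matched on depth to cells with Hbegf and no Areg in the same mouse (46, 256 and 569 pairs). Of 10296 genes, 149 were higher in the Areg cells (1.45%) and 265 in the Hbegf cells (2.57%), 4.02% in all. The Hbegf side held 12 of 16 resident-type scavenging genes, with a median log2 difference of -1.28 (Areg minus Hbegf) against -0.0003 over all genes, and 10 of them passed within the same cluster. Leaving out a mouse gave 12 to 14. Lyve1 was at 2.10, 6.59 and 18.3 CPM on the Areg side and 16.1, 30.8 and 83.0 on the Hbegf side (-2.16 ± 0.13, edgeR adjusted p = 3.3e-08). Cd163 was at 4.20, 9.19 and 13.3 CPM against 44.1, 30.6 and 66.7 (-2.15 ± 0.16), and Ccl7 at 668, 680 and 627 against 3133, 2533 and 2163 (-1.91 ± 0.10). The ranges of Cd163 and Ccl7 did not overlap, and all 3 genes passed within the same cluster (-0.91, -1.06 and -0.96).

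The Areg side held more Il12b, a subunit of interleukin 12, at 11.6, 182 and 45.7 CPM against 1.08, 42.6 and 13.1 (2.04 ± 0.12, edgeR adjusted p = 3.3e-08), a difference that did not pass within the same cluster (1.76). The chemokine gene Ccl5 was at 53.6, 85.7 and 39.0 CPM against 6.46, 33.3 and 20.2 (1.33 ± 0.22), without overlap, and passed within the same cluster (1.12) but not without mouse 2 (1.31). Of 20 NF-kB and inflammatory genes 5 were higher on this side (Il12b, Ccl5, Il1b, Ptgs2 and Nfkbiz) and none on the other, with 4 within the same cluster and 2 without mouse 2. Of 10 MHC class II genes 4 were higher (median 0.32), but none within the same cluster or without mouse 2. Of 14 cAMP-response genes only Crem was higher (0.40 ± 0.09) and none was lower, with a median of 0.11 over the list. Tnip3 (1.09 ± 0.17), the protease gene Napsa (0.97 ± 0.12), Tbc1d4 (0.97 ± 0.14), the survival gene Bcl2a1a (0.96 ± 0.12), Rims2 (0.94 ± 0.16) and Plscr1 (0.92 ± 0.16) were also higher, all of them within the same cluster except Rims2 (0.54), which also failed without mouse 2 (0.77). Il1b, the gene of interleukin 1 beta, was at 7926, 7682 and 4800 CPM against 6169, 5918 and 3520 (0.46 ± 0.08), a call lost without mouse 2 (0.46) or mouse 3 (0.43).

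Some growth factor and immediate-early genes were higher on the Hbegf side and none was lower. Igf1 was at 11.6, 13.5 and 14.2 CPM in Areg cells and 26.9, 41.7 and 34.0 in Hbegf cells (-1.35 ± 0.14, edgeR adjusted p = 1.1e-05), and Il10 at 76.7, 113 and 73.6 against 227, 227 and 111 (-0.90 ± 0.14). Of 14 growth and repair factor genes 5 were higher in Hbegf cells, with 3 within the same cluster. Of 19 immediate-early genes 6 were, among them Ier3 (-0.73 ± 0.11) and Jund (-0.61 ± 0.10), with 4 within the same cluster. The glycolysis regulator gene Pfkfb3 was at 45.2, 47.7 and 47.9 CPM in Areg cells and 99.0, 88.6 and 81.2 in Hbegf cells (-0.81 ± 0.10), without overlap. Nrg1 itself lay on the Hbegf side, at 46.2, 13.7 and 22.5 CPM against 127, 20.5 and 36.3 (-0.78 ± 0.14, edgeR adjusted p = 0.00537), a call lost within the same cluster (-0.25). Without mouse 1 the number of genes called rose from 414 to 996, 413 of them shared, and the cause was not tested.

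**Figure D5:**
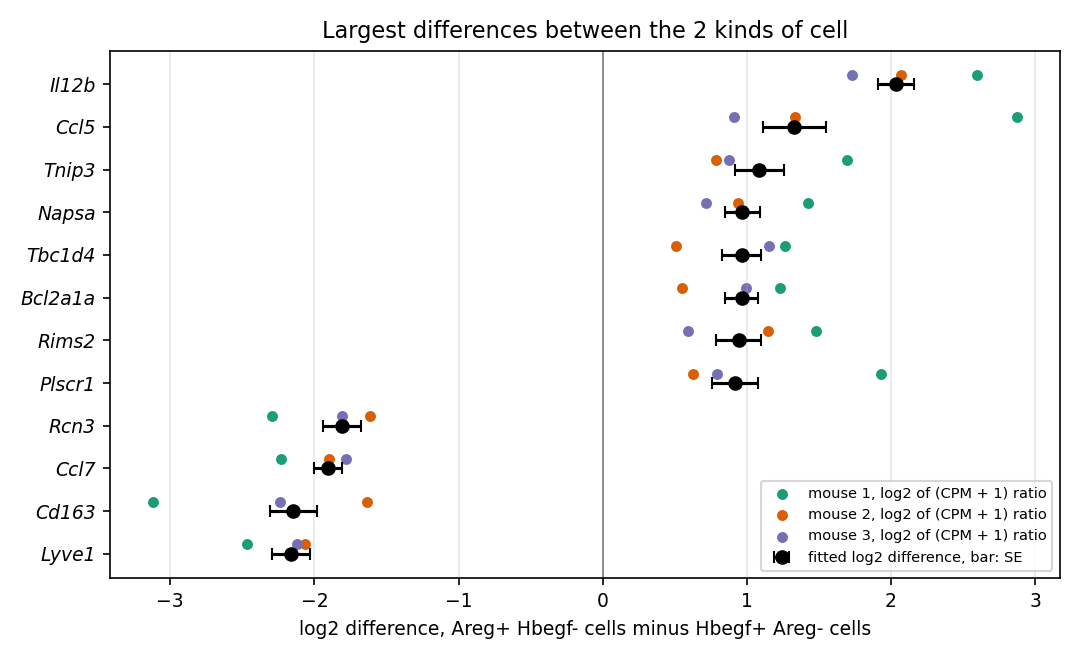
Fitted log2 difference (black points, bars: SE) between cells with Areg and no Hbegf and depth-matched cells with Hbegf and no Areg, for the 8 genes named as most higher and the 4 named as most lower in the Areg cells, with a coloured point per mouse for the log2 ratio of CPM + 1. All 3 mice lie on the same side of 0 for each of these genes, from Lyve1 at -2.16 to Il12b at 2.04.

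Nrg1 cells gave no call in the same test. With 149, 233 and 745 pairs, none of 10883 genes passed edgeR's adjusted threshold in either direction (0.0%), while 1350 had an unadjusted p under 0.05 and the DESeq2 Wald test called 55. The result rested on mouse 1, since without it edgeR called 377 genes. In mouse 1 the matched cells held 140 CPM of Areg against 26.9 in the Nrg1 cells, while in mice 2 and 3 the Nrg1 cells held more (229 and 85.3 against 167 and 61.8), and without mouse 1 Areg was higher in Nrg1 cells (0.49). Hbegf was higher in the Nrg1 cells of all 3 mice, at 28.0, 76.8 and 35.4 CPM against 4.63, 56.6 and 21.7 (0.83 ± 0.31, edgeR adjusted p = 0.402), and passed without mouse 1 (0.59). For Ereg no such comparison was made, since it was to be run only with 10 or more pairs in each mouse, and mice 1, 2 and 3 gave 0, 25 and 7.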

How the data were processed

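Sorted macrophages from 1 tumour of each of 3 mice were sequenced as 10x 3′ libraries. The authors deposited raw UMI counts per gene and cell barcode for each library, made with Cell Ranger 3.0.2 on build mm10 per the submitters' processing notes. The members and all gene lists were chosen with earlier results of these data known. A cell was kept from 500 detected genes on and up to 15% mitochondrial UMIs. They were clustered with scanpy 1.11.5 (2000 variable genes, 30 components, 15 neighbours, Leiden resolution 1.0) without 160 pathway, ribosomal and mitochondrial genes. A cluster was named where at least 5 markers of a list lay in at least 10% of its cells at a log2 excess of 0.5 or more. At least 1 marker of that list also had to be among its 10 leading genes, with fewer there from every other list. By this rule cluster 7 kept a number with 11 of 12 LYVE-1 resident markers higher. Cluster 2 did so with 8 of 10 inflammatory markers higher, and cluster 13 with 7 of 8 MHC class II markers. Scrublet called 26 doublets (0.267%), which was taken as a failed call, so no cell was removed in the main analysis. An alternative removed the 430 highest scores.

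Levels are summed UMIs per 1000000 (CPM), with the mean and SD over mice. No test was made between clusters. For the splits of cells, cells with a ligand UMI were paired with cells of the same mouse without one whose total UMIs lay within 10%. Each cell was used once, the deepest were paired first, and cells left without a partner were dropped. In mice 1, 2 and 3 these were 2, 95 and 11 Areg cells, 2, 101 and 22 Hbegf cells and 8, 0 and 4 Nrg1 cells. On the Areg side of the direct comparison they were 7, 25 and 202. In mouse 2 the median was 24314 UMIs over all Areg macrophages and 18982 over the paired ones. The sums were tested with edgeR 4.0.16 (R 4.3.3, limma 3.58.1, quasi-likelihood, filter on low counts) with the mouse as block, since both sums came from the same animal. DESeq2 1.42.0 was an alternative. The Areg against Hbegf comparison and the settings without clusters 7 and 13 or without the richest cell were added after seeing the data. Named genes were the 8 largest increases and 4 largest decreases among genes that passed the threshold, moved the same way in 3 of 3 mice and reached a mean of 20 CPM, plus up to 3 genes per list that passed and moved the same way in 3 of 3 mice, at any level, and the other ligands whatever their result. Genes added from outside this rule are given in counts of lists or as markers. On simulated Areg sums, 61.2% of changes of 0.5, 92.5% of 1 and 100% of 2 on the log2 scale were recovered. Of the calls, 12.4% were false with a gene-wise spread and 2.44% with a trended one. Both rates for Hbegf were 12.6 and 4.79%, for Nrg1 16.4 and 6.55%, and for the direct comparison 16.7 and 3.11%, so adjusted p-values near 0.05 are less secure than they read. Positions come from GENCODE M21.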

Additional observations from a re-analysis of the deposited data

How the results depend on the processing

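Removing the mouse as a replicate block left 0 genes for Areg, 1 for Hbegf, 0 for Nrg1 and 1 for the direct Areg against Hbegf comparison in edgeR, against 509, 1899, 0 and 414 with it. At an unadjusted p under 0.05 the fit without the block gave 421 for Areg. The DESeq2 Wald test gave 225, 695, 55 and 170 genes. Without a filter on low counts the numbers were 937 for Areg, 41 for Nrg1 and 815 for the direct comparison. Pairs within the same cluster gave 127, 119, 38 and 99, from fewer pairs. Cells with 2 or more Areg UMIs gave 337. All cells without a UMI, unmatched on depth, gave 3289 for Hbegf and 796 for Nrg1. Without clusters 7 and 13 there were 1033 for Hbegf and 75 for Nrg1, with high doublet scores removed 1 for Nrg1, and with at most 8% mitochondrial UMIs 261 for the direct comparison. Leaving out a mouse gave 202 to 391 genes for Areg (lowest without mouse 2), 214 to 2177 for Hbegf (lowest without mouse 2, then 593 without mouse 3), 0 to 377 for Nrg1 (highest without mouse 1) and 278 to 996 for the direct comparison (highest without mouse 1).

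The level of Areg in its leading cluster with at least 20 cells per mouse was 176 CPM and 142 in the matching cluster at a resolution of 0.5. That of Nrg1 was 172 and, with high doublet scores removed, 16.2 in the matching smaller cluster. Over mice left out the levels were 166 to 190 for Areg, 0.325 to 2.91 for Ereg, 61.1 to 163 for Hbegf and 84.0 to 223 for Nrg1. The sign changed with pairs within the same cluster for Retnla (-0.54), Ube2c (0.25) and Rrm2 (0.0031) in the Areg split, for Adora2a (-0.25), Nr4a2 (-0.054), Bag3 (-0.015), H2-Eb1 (-0.016), H2-Aa (-0.018, also unmatched at -0.018) and Areg (-0.30) in the Hbegf split, and for Lgals3 (-0.0054) in the direct comparison. The cause was not tested. Of all other values, 74 level or count values stayed within a set limit of the reported one. For a level this limit was the SD over mice, and for a count it was a fixed ratio. The SD was wide for Ereg (1.94 ± 2.81 CPM), Hbegf (118 ± 104) and Nrg1 (172 ± 153), so the limit says little about those levels. For named genes 1379 values kept their call, 361 lost it with the same sign and 3 gained one. The planned Ereg comparisons were not run, since mice 1 and 3 had fewer than 10 pairs. Ereg had 101 UMIs in all, so its levels rest on few counts.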
